A study of Mus musculus with 6 samples.

Results

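The genes described here are 44 genes of fatty acid oxidation and of the transcription factor PPARA, taken by symbol from a table of 55401 mouse gene IDs. They cover the PPARA axis, fatty acid uptake and activation, the carnitine shuttle, mitochondrial and peroxisomal oxidation, acyl-CoA thioesterases and a ketone body enzyme. All 44 symbols matched 1 gene ID each and all passed the filter on low counts. RNA of whole mouse kidneys was counted in 3 control libraries and 3 libraries labelled as diabetic kidney disease (DKD), kidney damage that accompanies diabetes. The labels give no strain, sex, age or way of inducing diabetes. Each group has libraries numbered from 1 to 3, without a statement that each came from its own animal, so p-values describe the spread among these 6 libraries, which may be technical in part.

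Proximal tubule cells, which reabsorb most of the filtered solutes, meet much of their energy need by burning fatty acids. Long-chain fatty acids enter cells through transporters, are joined to coenzyme A, pass into mitochondria as carnitine esters and are shortened in cycles of dehydrogenation, hydration, a second dehydrogenation and thiolysis. Very long and branched chains are first shortened in peroxisomes. PPARA is a nuclear receptor for fatty acids that binds DNA together with RXRA and switches on many genes of these steps, with PPARGC1A as a coactivator and ESRRA as a nuclear receptor that works with it.

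Library totals ran from 64816622 to 77417638 counts, and levels are given as CPM, read counts scaled to a common library size. DKD replicate 1 stood apart from the other DKD libraries, with a correlation of 0.946 and 0.940 to them over log2 CPM, against 0.957 to 0.961 to the controls. Of 36 hepatocyte markers, 35 were highest in this library. Their summed level there was 6218 CPM, against 563 to 975 CPM in the other 5 libraries, and Serpina3k, Ahsg and Mup3 had no count in any of those 5. Of 15 adipocyte markers, 10, 10, 9 and 7 had no count in control replicates 1 to 3 and DKD replicate 1, against 2 and 1 in DKD replicates 2 and 3. The brown fat gene Ucp1 was at 0.571 and 9.56 CPM in those last 2 libraries and had no count in the others. Proximal tubule markers, 25 genes that all had counts in every library, summed to 24228 to 26725 CPM in control and to 22960, 17645 and 17135 CPM in the DKD libraries in replicate order. Of 12 macrophage markers, 10 rose without DKD replicate 1 and none fell (edgeR, adjusted p under 0.05). They summed to 141, 145 and 169 CPM in control and to 146, 289 and 352 CPM in DKD, so that DKD replicate 1 lay within the control range. In whole kidneys, fewer cells of a type and less RNA per cell cannot be told apart. The part of these markers in the results was not tested, and results that rest on that library are given with and without DKD replicate 1.

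The comparison of DKD with control kidneys asked how transcripts of fatty acid oxidation differ in the diseased kidney. Members differed in both directions. The fatty acid importer Slc27a2, the medium-chain ligase Acsm2, the dehydrogenases Acad10 and Acads and the hydratase Echs1 were lower in every DKD library than in any control. The muscle-type carnitine transferase Cpt1b, the ligase Acsl1 and the thioesterases Acot1 and Acot2 were higher in every DKD library. The members together summed to 22079, 20408 and 19622 CPM in control and to 20008, 13770 and 13613 CPM in DKD replicates 1 to 3. Slc27a2 and Acsm2 were its largest parts in each library. Without weighting by abundance, the median log2 difference of the 44 members was -0.09, beside 0.02 over all 19197 genes tested. The fitted difference was above 0 for 16 of the 44 members (36.4%, against 52.4% of all genes), and for 13 without DKD replicate 1 (29.5%, against 51.6%). With library size alone, a scaling that moved the median of all genes by 0.15, it was above 0 for 26 (59.1%, against 70.2% of all genes).

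With the quasi-likelihood test of edgeR on all 6 libraries, 0 of 44 members passed an adjusted p of 0.05, as did 0% of all genes. At an unadjusted p under 0.05 there were 18 members, which is 40.9% against 19.2% of all genes. Of these, 7 were higher (12.2% of all genes) and 11 lower (7.05% of all genes). The 7 include Fabp1, which was near 0 in every library except DKD replicate 1. It passed the filter on low counts only with the DKD libraries. Groups did not overlap for 18 members (background 25.4%), 5 higher (13.8%) and 13 lower (11.5%) in DKD. Without DKD replicate 1 the groups of 26 members did not overlap (background 51%), 6 higher (27.4%) and 20 lower (23.6%). Without DKD replicate 1, the same edgeR test called 14 members, or 31.8%, against 15.5% of all genes, and 21 members had an unadjusted p under 0.05, against 31.3% of all genes. Of the 14, 4 were higher (9.09% of members, 9.67% of all genes) and 10 were lower (22.7% of members, 5.84% of all genes). On all 6 libraries DESeq2 called 3 members higher and 8 lower, where it called 9.11% of all genes, 6.22% higher and 2.89% lower. Limma-voom with sample quality weights called 5 members higher and 10 lower, against 17.7% of all genes, 9.94% higher and 7.75% lower. The 10 genes called by each of these 3 fits were Acot1, Acot2 and Cpt1b, which were higher, and Acad10, Acads, Acox3, Acsm2, Echs1, Etfa and Slc27a2, which were lower. These fits reuse the same libraries and are not independent of each other. The members were chosen with earlier results of these data known, so their shares of calls beside those of all genes are a description. In what follows, "rose" and "fell" refer to the edgeR test without DKD replicate 1, which leaves 2 DKD libraries. Counts of calls within a role or list stand beside 9.67% of all genes called higher and 5.84% called lower in that fit, and a single call among a few genes is not a result about the role.

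**Figure D1:**
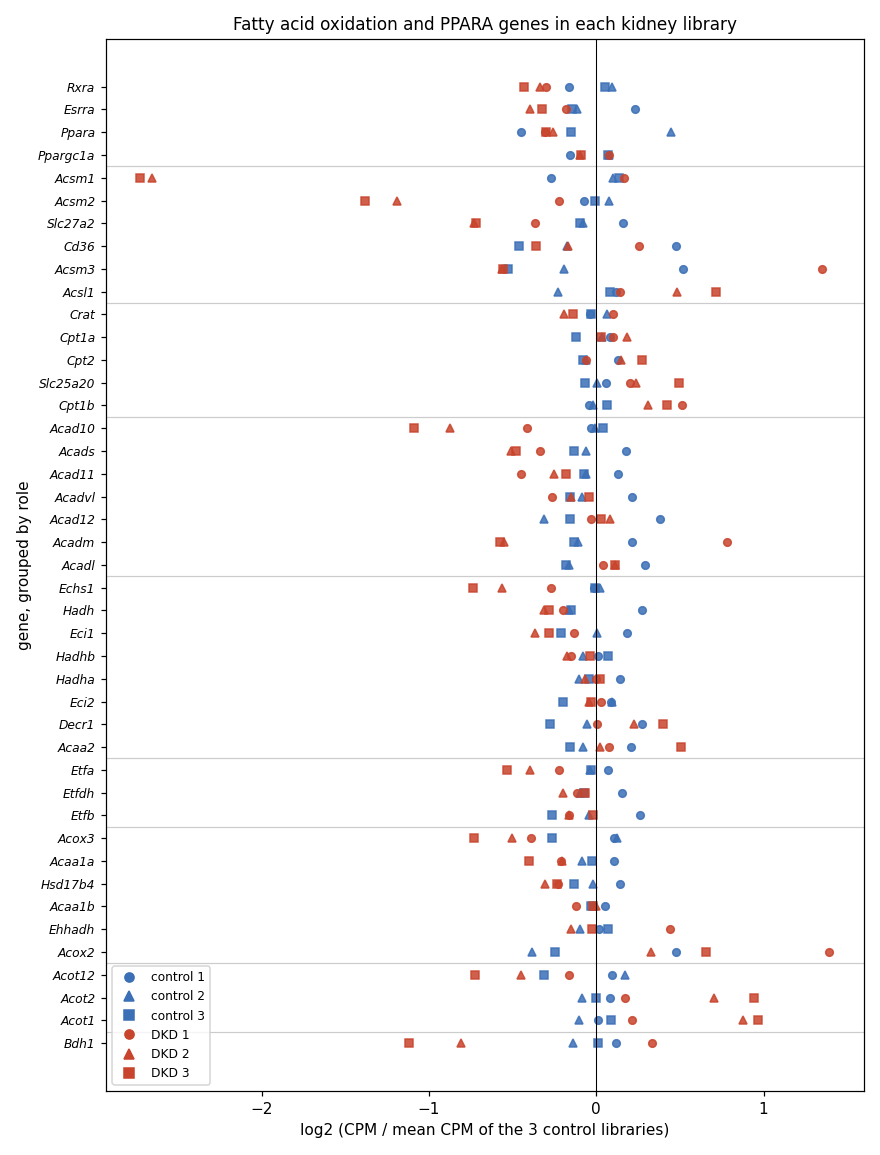
Level of 43 members in each library, as log2 of CPM over the mean of the 3 control libraries (x axis), with genes grouped by role (y axis). Blue points are control and red points DKD libraries, with shapes for replicates 1 to 3. Fabp1 is left out because it was near 0 in every library except DKD replicate 1. DKD replicate 1 (red circles) is far to the right of the other DKD libraries for Acsm1, Acsm3, Acadm, Acox2 and Bdh1.

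**Figure D2:**
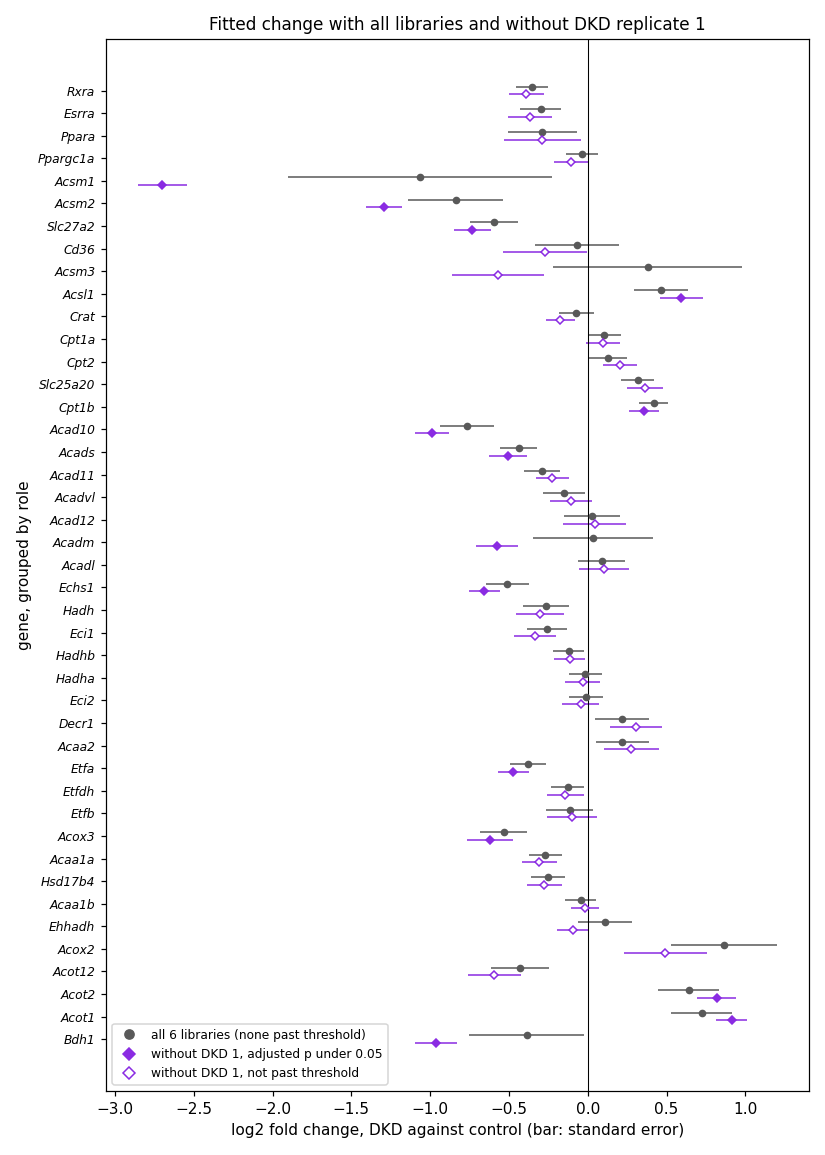
Fitted log2 fold change of DKD against control (x axis) for the same 43 members (y axis), with bars of 1 standard error. Grey circles use all 6 libraries, where no member passed the threshold, and purple diamonds leave out DKD replicate 1, filled where the adjusted p was under 0.05 (14 members).

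None of the 4 genes for transcription factors and their coactivator passed with edgeR, with or without DKD replicate 1. Ppara, the fatty acid receptor itself, was at 19.0, 35.5 and 23.5 CPM in control and 21.0, 21.7 and 21.1 CPM in DKD replicates 1 to 3. The 3 DKD libraries lay close together inside the control range, and DKD differed from control by -0.29 ± 0.22 on the log2 scale, with its standard error (SE; edgeR, adjusted p = 0.494). Without control replicate 2, the highest library, it was 0.0014. Ppargc1a was at 55.1, 64.8 and 64.7 CPM in control and 64.9, 57.4 and 57.8 CPM in DKD, a log2 difference of -0.04 ± 0.10 that became 0.11 with library size alone. Rxra, the DNA-binding partner of PPARA, was at 116, 138 and 134 CPM in control and at 105, 103 and 96.1 CPM in DKD. All DKD libraries were below all controls, yet the log2 difference of -0.35 ± 0.10 did not pass the threshold (adjusted p = 0.153 with edgeR, and 0.0570 without DKD replicate 1). It was called by DESeq2 (adjusted p = 0.0257) and by weighted limma-voom (adjusted p = 0.0193). Esrra was at 159, 125 and 122 CPM in control and at 119, 103 and 108 CPM in DKD, again with no overlap, and differed by -0.30 ± 0.13 (adjusted p = 0.268 with edgeR). The gap between its lowest control and highest DKD library was smaller than the spread within the controls.

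Uptake and activation held the most abundant members and the widest differences. Slc27a2, which imports long-chain fatty acids and joins very long chains to coenzyme A, had the highest level per exon length of the members, at 1292 CPM per kb in control. It was at 5428, 4600 and 4525 CPM in control and at 3757, 2924 and 2951 CPM in DKD replicates 1 to 3. Every DKD library was below every control. Its log2 difference was -0.60 ± 0.16 (adjusted p = 0.138 with edgeR), and without DKD replicate 1 it fell by 0.73 ± 0.12 (adjusted p = 0.0100 with edgeR). Acsm2, a mitochondrial ligase of medium-chain acids, was second in level at 766 CPM per kb in control. Its levels were 5404, 6005 and 5657 CPM in control and 4882, 2491 and 2181 CPM in DKD. DKD replicate 1 lay just below the controls, at 2.09 times the mean of the other DKD libraries. The log2 difference was -0.84 ± 0.30 (adjusted p = 0.205 with edgeR) with all libraries, and without DKD replicate 1 Acsm2 fell by 1.29 ± 0.11 (adjusted p = 0.00157 with edgeR).

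Acsm1 and Acsm3, ligases of the same family, were chosen for description after their values were seen. Acsm1 was at 447, 578 and 594 CPM in control, and its DKD libraries held 606, 85.5 and 81.6 CPM in replicate order. DKD replicate 1 was thus above every control and 7.25 times the mean of the other DKD libraries. Its log2 difference was -1.07 ± 0.84 (adjusted p = 0.522 with edgeR) over all libraries. Without DKD replicate 1 it fell by 2.70 ± 0.15 (adjusted p = 0.000546 with edgeR), the widest difference among the members in that fit. Acsm3 was at 591, 362 and 287 CPM in control, and its DKD libraries held 1053, 280 and 280 CPM. The sign of its difference turned with that library, from 0.38 ± 0.60 (adjusted p = 0.756) to -0.57 ± 0.29 without it (adjusted p = 0.241, both with edgeR). No window of 100 bases of the longest Acsm1 transcript occurred in transcripts of Acsm2 or Acsm3. Acsm2 was not compared with Acsm3. The exons of Acsm3 share 39.7% of their bases with Eri2 on the opposite strand, and the strand setting of the counting is not given in the sources used here.

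Acsl1, the main ligase of long-chain fatty acids in many tissues and also described after its values were seen, went the other way. It was at 147, 116 and 144 CPM in control and at 149, 189 and 222 CPM in DKD. DKD replicate 1 exceeded the highest control only narrowly. Without it Acsl1 rose by 0.59 ± 0.14 (log2; adjusted p = 0.0306 with edgeR), against 0.46 ± 0.17 (adjusted p = 0.210) with all libraries. Cd36, a fatty acid receptor of endothelium, fat cells and macrophages, ranged from 279 to 535 CPM in control and from 299 to 459 CPM in DKD, within the same span. Fabp1, the fatty acid binding protein abundant in liver, was at 0.454, 0.0606 and 0.113 CPM in control, and its DKD libraries held 38.2, 0.285 and 0.530 CPM. Its level in DKD replicate 1 was 93.6 times the mean of the other DKD libraries, in the library that also held the hepatocyte markers. Neither its difference over all libraries (5.98 ± 2.30, adjusted p = 0.244 with edgeR) nor that without DKD replicate 1 (0.96 ± 0.92, adjusted p = 0.532) passed, and DESeq2 gave it no adjusted p.

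**Figure D3:**
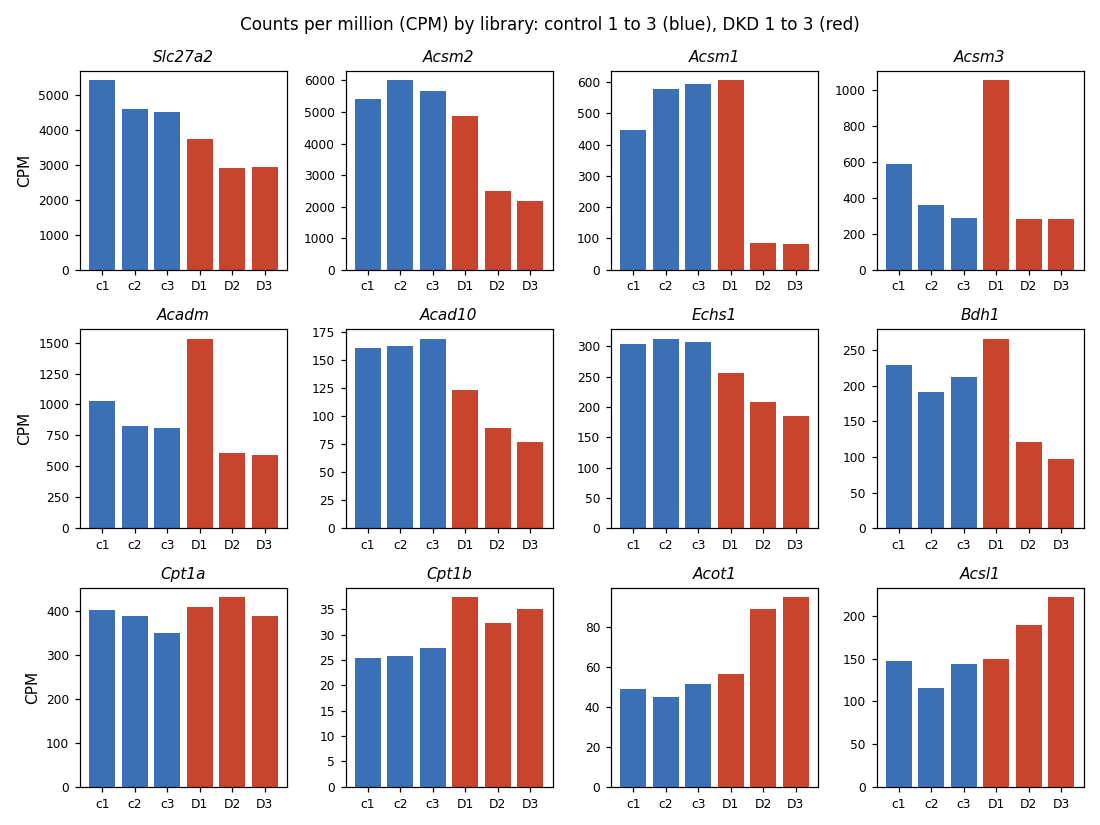
CPM of 12 members (y axes, from 0) in control replicates 1 to 3 (c1 to c3, blue) and DKD replicates 1 to 3 (D1 to D3, red). In Acsm1, Acsm3, Acadm and Bdh1, D1 is above every control while D2 and D3 are below. In Acad10 and Echs1 all DKD bars are below the controls, and in Cpt1b all are above.

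In the carnitine shuttle, 4 of 5 members had a fitted difference above 0. Cpt1a, the carnitine palmitoyltransferase that sets the pace of mitochondrial oxidation in liver and kidney, was at 403, 389 and 350 CPM in control and at 409, 432 and 388 CPM in DKD. The groups overlapped and the log2 difference was 0.11 ± 0.11 (adjusted p = 0.618 with edgeR). Cpt1b, the form typical of muscle and brown fat, was at 25.4, 25.8 and 27.3 CPM in control and at 37.4, 32.4 and 35 CPM in DKD. Its control libraries lay within 2 CPM of each other and below every DKD library. The log2 difference was 0.42 ± 0.09 (adjusted p = 0.111 with edgeR), with the smallest unadjusted p of the members, and it rose by 0.36 ± 0.10 without DKD replicate 1, at an adjusted p of 0.04996 with edgeR that is barely under the threshold. Summed muscle markers were also higher in every DKD library, and summed adipocyte markers in DKD replicates 1 and 3. The 14 muscle markers summed to 0.774, 1.92 and 1.56 CPM in control and to 2.53, 3.86 and 4.41 CPM in DKD. The 15 adipocyte markers summed to 69.2, 56.2 and 78.9 CPM in control and to 120, 70.2 and 123 CPM in DKD, and in DKD replicate 1 the adipocyte genes Ucp1, Adipoq and Plin1 had no count. Their part in the level of Cpt1b was not tested. The predicted gene Gm44502 lies on the same strand and covers 81.4% of the exon bases of Cpt1b, so how reads were split between them is uncertain. Slc25a20, which carries acylcarnitines across the inner membrane, was at 49.1, 47.3 and 45.0 CPM in control and at 54.2, 55.5 and 66.5 CPM in DKD. All DKD libraries were higher, but the difference of 0.32 ± 0.11 did not pass (adjusted p = 0.183 with edgeR, and 0.0700 without DKD replicate 1). Cpt2 (0.13 ± 0.12) and Crat (-0.07 ± 0.11) differed by about 1 SE or less (adjusted p = 0.591 and 0.743 with edgeR).

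Of the 7 members of the acyl-CoA dehydrogenase family, which carry out the first step of each cycle, 3 fell without DKD replicate 1 and none rose. Acad10 was at 161, 163 and 169 CPM in control and at 123, 89.5 and 77.2 CPM in DKD. The controls were nearly level and every DKD library was well below them. It differed by -0.76 ± 0.17 (adjusted p = 0.114 with edgeR) with all libraries and fell by 0.99 ± 0.11 (adjusted p = 0.00309) without DKD replicate 1. Acad12 lies beside it in the genome and shares 10.2% of its 100-base windows with Acad10. Its values of 61.6, 38.1 and 42.5 CPM in control and 46.3, 50.1 and 48.3 CPM in DKD overlapped between the groups. Acads, the short-chain enzyme, was at 301, 256 and 243 CPM in control and at 211, 187 and 192 CPM in DKD, without overlap. It fell by 0.50 ± 0.12 (adjusted p = 0.0331 with edgeR) without DKD replicate 1, and differed by -0.44 ± 0.12 (adjusted p = 0.141) with it.

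Acadm, the medium-chain dehydrogenase and the most abundant of the family per exon length, depended on DKD replicate 1. It was at 1032, 825 and 812 CPM in control, and its DKD libraries held 1531, 606 and 596 CPM. The log2 difference was 0.03 ± 0.38 (adjusted p = 0.970 with edgeR) with all libraries, while without that library Acadm fell by 0.57 ± 0.13 (adjusted p = 0.0302). For the long-chain enzymes Acadl and Acadvl the DKD libraries lay between 305 and 321 CPM and between 297 and 347 CPM. Control replicate 1 was the highest library for both, at 363 and 414 CPM, and the groups overlapped. Acadvl shares 42.9% of its exon bases with Dvl2 on the opposite strand, a gene with a mean of 16.5 CPM. Acad11 was lower in every DKD library, at 214 to 257 CPM against 278 to 319 CPM, with a log2 difference of -0.29 ± 0.12 (adjusted p = 0.240 with edgeR).

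Among the 8 genes of the later steps of the cycle, 1 fell without DKD replicate 1 and none rose, where 5.84% of all genes fell and 9.67% rose. Echs1, the short-chain enoyl-CoA hydratase, was at 304, 312 and 307 CPM in control and at 255, 209 and 184 CPM in DKD. No DKD library reached the controls. The difference was -0.51 ± 0.14 (adjusted p = 0.140 with edgeR) with all libraries, and Echs1 fell by 0.66 ± 0.10 (adjusted p = 0.00841) without DKD replicate 1. Hadh, the most abundant of these genes by CPM, encodes the dehydrogenase of short and medium 3-hydroxyacyl chains. It was at 617, 456 and 460 CPM in control and at 445, 412 and 421 CPM in DKD, and the difference of -0.26 ± 0.15 did not pass (adjusted p = 0.360 with edgeR). Hadha and Hadhb, the paired subunits of the trifunctional protein for long chains, differed by -0.02 ± 0.10 and -0.12 ± 0.10 (adjusted p = 0.945 and 0.519 with edgeR). Hadha in particular held 206 to 244 CPM in control and 211 to 225 CPM in DKD. The thiolase Acaa2 and the dienoyl-CoA reductase Decr1 both differed by 0.22 ± 0.17, with DKD replicate 3 as the highest library of each (273 and 243 CPM). The isomerases Eci1 and Eci2 differed by -0.26 ± 0.13 and -0.01 ± 0.11, and neither passed.

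The electron transfer flavoprotein takes electrons from the acyl-CoA dehydrogenases and hands them to the respiratory chain. Its alpha subunit Etfa was at 397, 369 and 371 CPM in control and at 324, 288 and 261 CPM in DKD, with no overlap. The difference was -0.38 ± 0.12 (adjusted p = 0.165 with edgeR), and Etfa fell by 0.47 ± 0.10 (adjusted p = 0.0226) without DKD replicate 1. The beta subunit Etfb differed by -0.11 ± 0.15 and the oxidoreductase Etfdh by -0.13 ± 0.11 (adjusted p = 0.699 and 0.540 with edgeR). That the subunits differ from each other was not tested.

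Of the 6 peroxisomal members, 1 fell without DKD replicate 1 and none rose, beside 5.84% and 9.67% of all genes. Acox3, an oxidase of branched chains, was at 464, 468 and 359 CPM in control and at 329, 304 and 260 CPM in DKD. Control replicate 3 was the lowest control and still above every DKD library. It fell by 0.62 ± 0.15 (adjusted p = 0.0341 with edgeR) without DKD replicate 1, and differed by -0.53 ± 0.15 (adjusted p = 0.15) with it. Ehhadh, the bifunctional enzyme and a textbook PPARA target, was at 718, 664 and 746 CPM in control and at 962, 639 and 698 CPM in DKD. Its log2 difference was 0.11 ± 0.17 (adjusted p = 0.749 with edgeR) and turned to -0.10 ± 0.10 without DKD replicate 1. Acox2, an oxidase of bile acid precursors named after its values were seen, was at 76.6, 42.2 and 46.3 CPM in control and at 144, 69.0 and 86.7 CPM in DKD. DKD replicate 1 was again the highest library, and the difference of 0.86 ± 0.34 (adjusted p = 0.234 with edgeR) was 0.49 ± 0.26 without it. The thiolases Acaa1a and Acaa1b share 21.6% and 22.6% of their 100-base windows, so their reads can be confused. Acaa1a was at 178, 156 and 162 CPM in control against 143, 143 and 125 CPM in DKD, while Acaa1b ranged from 330 to 349 CPM and from 310 to 337 CPM. Neither passed (adjusted p = 0.225 and 0.820 with edgeR). Hsd17b4, the other bifunctional enzyme of peroxisomes, was at 272 to 328 CPM in control and 241 to 254 CPM in DKD, a log2 difference of -0.25 ± 0.11 (adjusted p = 0.258 with edgeR).

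Acyl-CoA thioesterases split acyl-CoA into free acid and coenzyme A. Acot1, the cytosolic form, was at 48.8, 45.1 and 51.7 CPM in control and at 56.4, 89.2 and 94.9 CPM in DKD. Acot2, its mitochondrial neighbour, was at 16.6, 14.8 and 15.7 CPM in control and at 17.7, 25.6 and 30.1 CPM in DKD. Both were higher in every DKD library, with DKD replicate 1 close to the controls. Without that library Acot1 rose by 0.91 ± 0.10 and Acot2 by 0.82 ± 0.12 (log2; adjusted p = 0.00320 and 0.00860 with edgeR). With all libraries the differences were 0.72 ± 0.19 and 0.64 ± 0.19 (adjusted p = 0.140 and 0.162). Of their 100-base windows, 16.5% of Acot1 and 17.1% of Acot2 occur in the other gene, so these may not be separate observations. Acot12, a peroxisomal or cytosolic acetyl-CoA thioesterase, was at 225, 238 and 169 CPM in control and at 188, 154 and 127 CPM in DKD, and differed by -0.43 ± 0.18 (adjusted p = 0.261 with edgeR). It was the most abundant of these genes by CPM, and its groups overlapped through control replicate 3 and DKD replicate 1.

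Bdh1, which interconverts the ketone bodies acetoacetate and 3-hydroxybutyrate, was at 229, 192 and 212 CPM in control, and its DKD libraries held 266, 121 and 97.2 CPM. DKD replicate 1 was the highest of all libraries and at 2.44 times the mean of the other DKD libraries. The log2 difference was -0.39 ± 0.37 (adjusted p = 0.588 with edgeR), and without that library Bdh1 fell by 0.96 ± 0.13 (adjusted p = 0.00654). In all, DKD replicate 1 was the highest of the 6 libraries for 10 members (22.7%, against 14.3% of all genes), namely Acadm, Acox2, Acsm1, Acsm3, Bdh1, Cpt1b, Crat, Ehhadh, Fabp1 and Ppargc1a. It was the lowest for 3 (13.8% of all genes), Acaa1b, Acad11 and Acadvl, and lay within the control range for 12 members (27.3%, against 46.5% of all genes).

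PPARA and RXRA bind a direct repeat of a half-site with 1 base between the copies, called DR1. The 250 bases before the RefSeq transcription start (build GRCm38.p6) were searched on both strands in 44 promoters of the 39 members with an entry, and in all 32851 promoters of the table. Acaa2, Cpt1b, Crat, Decr1 and Hsd17b4 had no entry. The half-site AGGTCA, or TGACCT on the other strand, stood in 10 member promoters (22.7%) and in 14.0% of all promoters. The 10 were those of Acadm, Acadvl, Acot12, Acsm1, Cd36, Cpt1a, Echs1, Fabp1, Rxra and Slc27a2. The full DR1, AGGTCANAGGTCA, stood in none of the member promoters and in 0.0335% of all. With 1 changed base allowed in the half-sites it was found in 2 member promoters, those of Fabp1 and Acot12 (4.55%), and in 0.484% of all promoters. In both, 1 copy of the half-site is intact, so they are also among the 10. The sequences shown are of these 2 members and of 5 others with a half-site, namely Acadm, Echs1, Slc27a2 and Acsm1, which fell without DKD replicate 1, and Cpt1a. Of the other 6 members that fell in that fit, none held a half-site in this window, nor did Acot1, Acot2 and Acsl1, which rose. Each is printed 5′ to 3′ on the strand of its gene and ends at the last base before the start, with capitals marking the DR1 match of Fabp1 and Acot12 and the half-site of the others.
Fabp1, chr6:71199629-71199878, plus strand: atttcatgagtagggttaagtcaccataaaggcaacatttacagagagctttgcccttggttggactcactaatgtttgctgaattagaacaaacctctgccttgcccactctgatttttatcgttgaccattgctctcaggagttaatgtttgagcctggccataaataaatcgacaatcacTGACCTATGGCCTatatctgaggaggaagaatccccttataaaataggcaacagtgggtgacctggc
Acot12, chr13:91741271-91741520, plus strand: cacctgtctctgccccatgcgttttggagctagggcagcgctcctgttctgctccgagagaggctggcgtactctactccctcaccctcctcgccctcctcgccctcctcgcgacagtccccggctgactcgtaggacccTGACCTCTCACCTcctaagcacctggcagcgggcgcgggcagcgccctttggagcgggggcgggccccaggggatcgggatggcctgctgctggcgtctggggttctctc
Acadm, chr3:153944644-153944893, minus strand: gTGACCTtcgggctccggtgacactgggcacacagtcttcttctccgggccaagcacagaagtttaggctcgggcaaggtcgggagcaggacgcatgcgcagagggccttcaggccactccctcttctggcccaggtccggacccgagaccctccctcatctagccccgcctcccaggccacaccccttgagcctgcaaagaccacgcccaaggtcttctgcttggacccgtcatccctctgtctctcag
Echs1, chr7:140116422-140116671, minus strand: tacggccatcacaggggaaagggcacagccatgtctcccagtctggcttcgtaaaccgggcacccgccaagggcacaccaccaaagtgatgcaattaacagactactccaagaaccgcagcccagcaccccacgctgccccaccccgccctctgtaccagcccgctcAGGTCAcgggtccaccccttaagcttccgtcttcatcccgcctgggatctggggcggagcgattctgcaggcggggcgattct
Slc27a2, chr2:126552774-126553023, plus strand: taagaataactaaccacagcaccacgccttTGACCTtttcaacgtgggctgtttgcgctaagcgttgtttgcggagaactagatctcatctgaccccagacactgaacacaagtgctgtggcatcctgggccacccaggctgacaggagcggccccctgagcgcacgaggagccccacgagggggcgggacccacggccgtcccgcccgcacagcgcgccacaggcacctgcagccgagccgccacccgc
Acsm1, chr7:119617562-119617811, plus strand: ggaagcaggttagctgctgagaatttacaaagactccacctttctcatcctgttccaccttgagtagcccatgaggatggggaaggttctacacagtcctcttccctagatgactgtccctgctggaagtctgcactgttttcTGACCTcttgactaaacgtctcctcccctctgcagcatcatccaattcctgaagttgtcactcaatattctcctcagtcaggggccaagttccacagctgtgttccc
Cpt1a, chr19:3323051-3323300, plus strand: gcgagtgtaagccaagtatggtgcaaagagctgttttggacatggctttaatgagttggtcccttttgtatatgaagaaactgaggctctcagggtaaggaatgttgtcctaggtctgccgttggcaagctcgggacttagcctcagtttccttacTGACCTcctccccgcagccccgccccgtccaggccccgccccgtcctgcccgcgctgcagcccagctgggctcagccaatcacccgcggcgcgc
In Fabp1 the match begins 67 bases before the start and in Acot12 110 bases before it. The half-sites begin 249 bases before the start in Acadm, 83 in Echs1, 220 in Slc27a2, 107 in Acsm1 and 94 in Cpt1a. Among members with a half-site, the bases after the start were not found in the reference transcripts of the gene for Acadm, Acadvl and Cd36. The start is less sure for these. A match of letters is a description and does not show that a factor binds there.

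A further list of 124 genes of the same pathway is given beside the members. It was drawn up from textbook knowledge, but with earlier results of these data known, so its shares of calls are a description. Of these, 119 were tested and 0 passed with edgeR on all 6 libraries (35 at an unadjusted p under 0.05, and 22 and 39 called by DESeq2 and weighted limma-voom). Without DKD replicate 1 edgeR called 35 of 120 (29.2%, against 15.5% of all genes), with 12 higher (10%, against 9.67%) and 23 lower (19.2%, against 5.84%). The 12 higher include Cidea, which did not pass the filter on low counts with all 6 libraries. They also include Creb3l3, which was near 0 in the controls and passed that filter only with the DKD libraries. Among 14 mitochondrial genes that oxidise branched, odd-chain and amino acid derived acyl groups, 9 fell (Acad8, Ivd, Gcdh, Auh, Hibch, Hibadh, Pcca, Pccb and Mmut) and none rose, with a median log2 difference of -0.45 over all libraries. Hibch and Auh, enzymes of valine and leucine breakdown, were at 71.6 ± 1.53 and 87.5 ± 6.39 CPM in control and at 49.4 ± 7.29 and 63.3 ± 6.62 CPM in DKD (SD, n = 3). Every DKD library was below every control for both. Among 7 ketone body genes 3 fell, Bdh2, Oxct1 and Acat1, and none rose. Bdh2 was at 314, 305 and 319 CPM in control and at 226, 197 and 183 CPM in DKD, and fell by 0.73 ± 0.09 (adjusted p = 0.00512 with edgeR) without DKD replicate 1. Of 23 further peroxisomal genes 4 fell (Amacr, Pecr, Pex5 and Cat) and none rose. Among 23 genes of uptake, binding, activation and carnitine, 4 rose (Slc27a1, Acsl5, Acss3 and Cpt1c) and 3 fell (Acsm5, Acss2 and Mlycd). Among 21 nuclear receptors and cofactors 1 rose and 2 fell, and among 9 thioesterases none did either. Amacr, the racemase of branched acids, and Cat, the peroxidase of peroxisomes, are named here after their values were seen. So are the other genes of these lists beyond Hibch, Auh, Bdh2, Acsl5 and Creb3l3.

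Other PPARA targets were split. Of 27 such genes, 23 of them tested on all 6 libraries, 7 rose and 2 fell without DKD replicate 1. In that fit 9.67% of all genes tested rose and 5.84% fell. Those that rose were Cyp4a10, Cyp4a14, Cyp4a31, Pdk4, Vnn1, Ucp2 and Cidea, several of them chosen for description after their values were seen. Cyp4a14, a fatty acid omega-hydroxylase, was at 68.3, 31.4 and 23.4 CPM in control and at 48.0, 450 and 824 CPM in DKD. Pdk4, a kinase that holds back glucose oxidation, was at 15.1, 7.87 and 9.39 CPM in control and at 9, 34.0 and 106 CPM in DKD. In both genes DKD replicate 1 lay inside the control range and DKD replicate 3 was the highest. Ucp2, a mitochondrial carrier, was at 63.6, 42.7 and 36.4 CPM in control and at 98.4, 195 and 267 CPM in DKD, and rose by 2.27 ± 0.25 (log2; adjusted p = 0.00365 with edgeR) without DKD replicate 1. Macrophage markers were likewise highest in DKD replicates 2 and 3, at 289 and 352 CPM in sum, and their part in the level of these genes was not tested. Cidea is also a brown fat gene and had no count in the controls and DKD replicate 1, beside 0.272 and 2.14 CPM in the others. It failed the filter on low counts over all 6 libraries and entered the fit without DKD replicate 1 through the libraries where it was present. Its call was thus shaped by that filter and is not a result about these targets. The genes that fell were Cyp4a12a and Cyp4a12b, hydroxylases that are higher in male kidneys. Cyp4a12b went from 43.4, 62.2 and 55.7 CPM in control to 19.4, 23.7 and 19.7 CPM in DKD (log2 difference -1.36 ± 0.16, adjusted p = 0.0978 with edgeR over all libraries). Cyp4a12a is itself 1 of the 10 male-biased markers. These summed to 27597 to 35966 CPM in control and to 27661, 15466 and 9767 CPM in DKD replicates 1 to 3. Of 8 female-biased markers, 1 rose and 1 fell without DKD replicate 1, with Cyp4a14 as the gene that rose. In a list of 5 genes, Y-linked or Xist, none rose or fell. The part of these markers in the levels of the Cyp4a genes was not tested. Sequence shared among the Cyp4a genes was not measured either, so they may not be separate observations.

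**Figure D4:**
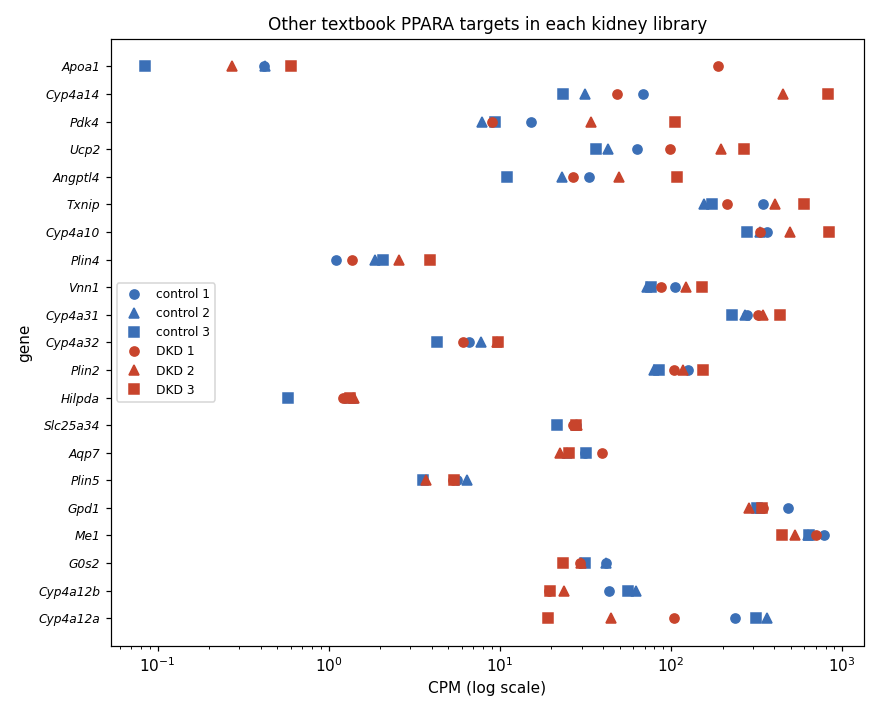
CPM on a log axis (x axis) of 21 further PPARA target genes (y axis) with a mean of at least 1 CPM and a count in every library. Blue points are control and red points DKD libraries, with shapes for replicates 1 to 3. DKD replicates 2 and 3 (red triangle and square) are to the right of the controls for Cyp4a14, Pdk4 and Ucp2, and to the left for Cyp4a12a and Cyp4a12b.

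Hnf4a, a nuclear receptor that keeps proximal tubule cells differentiated, was at 914, 952 and 863 CPM in control and at 666, 528 and 538 CPM in DKD. It differed by -0.66 ± 0.13 (adjusted p = 0.104 with edgeR) and fell by 0.78 ± 0.10 (adjusted p = 0.00447) without DKD replicate 1. Creb3l3, a partner of PPARA in liver, was at 0, 0.167 and 0.0564 CPM in control and at 9.83, 0.778 and 1.80 CPM in DKD, higher in every DKD library and highest in the one with hepatocyte markers. Without that library its log2 difference was 4.06 ± 0.97 (adjusted p = 0.0332 with edgeR), from controls of few counts. At these control levels Creb3l3 passed the filter on low counts only with the DKD libraries. Its call was thus shaped by that filter and is not a result about this gene. Acsl5, a long-chain ligase, was at 77.2, 67.6 and 69.4 CPM in control and at 91.7, 106 and 114 CPM in DKD, and rose by 0.61 ± 0.10 (log2; adjusted p = 0.0115 with edgeR) without DKD replicate 1.

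Proximal tubule markers and the members were set side by side, since most members are abundant in that cell type. Without DKD replicate 1, 13 of 25 proximal tubule markers fell and none rose, with a median of -0.64 on the log2 scale, while the 44 members had a median of -0.16. The median level of the tubule markers, relative to the control mean, was -0.15, -0.64 and -0.60 in the DKD libraries in replicate order. For the 7 members of uptake and activation the values were 0.18, -0.50 and -0.49. For the 8 later steps of the mitochondrial cycle they were -0.06, -0.12 and -0.03, and for the 5 carnitine shuttle genes 0.10, 0.18 and 0.28. The differences between these groups were not tested.

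**Figure D5:**
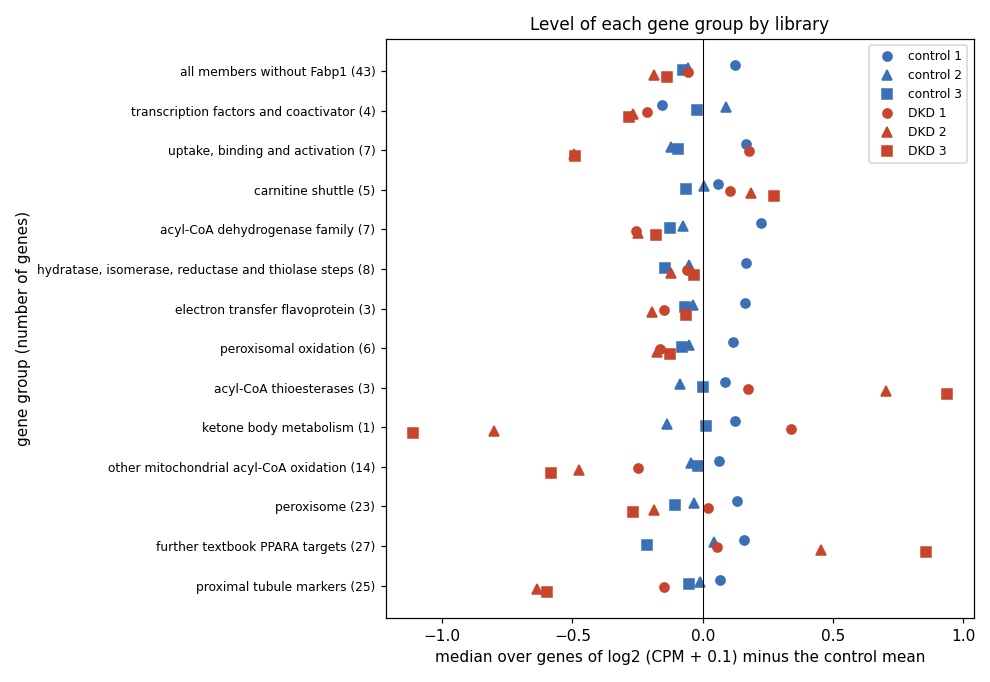
Level of each gene group by library, as the median over its genes of log2 (CPM + 0.1) minus the control mean (x axis), with the number of genes in brackets (y axis). Blue points are control and red points DKD libraries. In DKD replicates 2 and 3, 3 groups have medians between -0.64 and -0.48. These are the 7 uptake members, the 14 other mitochondrial oxidation genes, which are no members, and the proximal tubule markers. The medians of the 5 carnitine shuttle members and of the 3 thioesterase members are above 0 there, though Crat and Acot12 were below every control.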

How the data were processed

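Poly(A) RNA of whole kidneys was sequenced, per the labels' protocols, from strand-marked libraries. The values deposited are whole-number counts for each gene and library, not normalised. The tools named in the submitters' processing notes are fastp, HISAT2, StringTie and edgeR, and the build is GRCm39. Their versions and roles, the annotation and the strand setting are not stated in the sources used here. Symbols came from a GENCODE table of another build (55141 IDs matched). Exon lengths, overlaps and transcript windows came from that GENCODE release, M21 (GRCm38), and promoters from RefSeq (GRCm38.p6).

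Counts were fitted in R 4.3.3 with edgeR 4.0.16 (quasi-likelihood, two-sided test on group, robust dispersion), TMM factors and the default low count filter, and p-values were adjusted by Benjamini-Hochberg over all 19197 genes tested (threshold 0.05). CPM values use the TMM factors. A library with 3 counts of a gene holds 0.0353 to 0.0504 CPM, the limit that a count of 0 allows for counting error. The members and lists were chosen with earlier results of these data known. The 21 members with values in every library by rule were the 4 regulators and Cpt1a, the 12 with the smallest unadjusted p and the most abundant of each role by CPM. Of the other pathway genes, the rule took the 8 with the smallest p. Genes beyond these are named after their values were seen. Alternatives were RLE factors, library size alone, leaving out the 50 most counted genes, DESeq2 1.42.0, weighted limma-voom (limma 3.58.1), no filter, a filter of CPM 1 in 3 samples, a replicate block and leaving out each library. The fits were also run on simulated counts without an outlying library, which cannot show how they behave with DKD replicate 1.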

Additional observations from a re-analysis of the deposited data

How the results depend on the processing

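Leaving out the 50 most counted genes removed Slc27a2 and Acsm2 and left 42 members, and the filter of CPM 1 in 3 samples left 43. With edgeR on all 6 libraries the count of members past the threshold was 0, as it was with RLE factors, library size alone, both other filters, without the 50 most counted genes and with the replicate block. It was 11 with DESeq2, 15 with weighted limma-voom and 14 without DKD replicate 1, and stayed at 0 when any other library was left out. For the other pathway genes the counts were 22, 39 and 35, and otherwise 0. The median difference of the members, -0.093, became 0.058 with library size alone, which shifts all genes, and ran from -0.158 to -0.039 without single libraries. Acadm turned from 0.03 to -0.372 with weighted limma-voom and -0.11 with the replicate block, and ran from -0.575 to 0.265 without single libraries. Ehhadh became -0.0449 and Acsm3 -0.169 with weighted limma-voom, with ranges of -0.0951 to 0.226 and -0.571 to 0.728. Ppargc1a became 0.107 with library size alone and ran from -0.112 to 0.000456, and Ppara ran from -0.471 to 0.00143. Without control replicate 2 Acadm was -0.0178, and without control replicate 3 it was -0.0286. The cause was not tested. The replicate block changed no call, with a median of -0.105. Same-numbered libraries correlated at 0.034, 0.023 and 0.034 in their deviations from group means, and other pairs at -0.03 to 0.001. All these values are near 0, so they cannot show whether libraries of the same number belong together. Fabp1 and Creb3l3 rest on few counts in most libraries.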
